A study of Bos taurus with 12 samples.

Results

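The genes of the mitochondrial respiratory chain and ATP synthase were followed in the messenger RNA of F7, a line of embryonic stem cells from cattle. The entries were taken from the deposited count table by gene symbol: subunits of complexes I to V encoded in the nucleus, without assembly factors, and the 13 proteins encoded by mitochondrial DNA. Of 19285 entries, 100 met this rule, 87 of them nuclear and 13 mitochondrial. Of these, 99 had identifiers of their own: 39 nuclear subunits of complex I, 4 of complex II, 8 of complex III, 17 of complex IV and 18 of complex V, and 7, 1, 3 and 2 mitochondrial subunits of complexes I, III, IV and V.

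All libraries came from wild-type cells, and the 12 of them formed 4 groups of 3. The groups are labelled MC, then 1/7MC, next 1/7MC+Pyr and lastly 1/7MC+Pyr+FGF. MC carries the treatment label NC. The title of the series names pyruvate, a human basic fibroblast growth factor made as a recombinant protein, and feeder layers of low density. The labels explain neither MC nor NC, give no species for the feeder cells and do not say that replicates were separate cultures, so p-values measure the spread between these samples only. F7 is a single line.

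The respiratory chain passes electrons from NADH (complex I) and succinate (complex II) through complex III to oxygen at complex IV, and pumps protons that drive ATP synthesis at complex V. Complexes I, III, IV and V are built from products of both the nuclear and the mitochondrial genome, while complex II is wholly nuclear. Mitochondrial DNA is transcribed as long precursors that are processed into single messengers, so its genes share transcription units, whereas each nuclear subunit has a promoter of its own. Pluripotent cells are known for high glycolysis, and the use of the respiratory chain changes with their state.

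Total counts ran from 27373759 to 44440972 per library. MC replicates 2 and 3 differed from the other 10 libraries in which entries had equal counts. Of 128 Ensembl identifiers shared by several entries, 80 to 86 had unequal counts in any one of the 10, and 0 in these MC libraries. Of 61 shared Entrez identifiers the reverse held, with 53 unequal in each of these MC libraries and 0 in any of the 10. The annotation behind each library is not given in the sources used here. COX7C, a small subunit of complex IV, shared its identifier with LOC101902937, and the 2 had equal counts in MC replicates 2 and 3 only (3136 and 2855), so COX7C was not tested. Both of these MC libraries lay at least 0.5 (log2) to the same side of MC replicate 1 for 6 of 81 tested nuclear subunits (7.41%: NDUFA13, NDUFS5, NDUFS3, ATP5MK, COX8A and COX6B1) and for ND4L and ATP8 among the mitochondrial genes, against 14.0% of all genes. For this reason each comparison with MC was made again with MC replicate 1 standing alone for its group, on the assumption that it varies as the other groups do. A gene counts as called, and is said to rise or fall, where its adjusted p from edgeR's quasi-likelihood test was under 0.05, and values after ± are standard errors of log2 fold changes unless named as SD.

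Of the markers of the labelled cell type, 8 of 10 pluripotency genes had an entry, and SOX2 and TDGF1 had none under these symbols. The summed level of the 8 lay between 2340 and 4178 CPM (counts scaled to library size with trimmed-mean factors) in every library. Fibroblast and feeder markers, 25 genes, summed to 8847 to 9056 CPM in MC, 25732 to 35422 in 1/7MC, 31387 to 47132 in 1/7MC+Pyr and 21168 to 29398 in 1/7MC+Pyr+FGF. In bulk RNA, fewer cells of a type and less RNA per cell cannot be told apart.

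The 13 mitochondrial genes gave far more RNA than the nuclear ones. They took 3.25%, 3.38% and 3.60% of the counts of MC replicates 1 to 3, then 2.79%, 3.39% and 2.38% for 1/7MC, 4.11%, 3.19% and 3.72% for 1/7MC+Pyr and finally 2.82%, 4.18% and 3.30% for 1/7MC+Pyr+FGF. The 86 nuclear subunits together took 0.917%, 0.951% and 0.990% of MC, then 1.01%, 0.798% and 0.956% of 1/7MC, 0.757%, 0.945% and 0.809% of 1/7MC+Pyr and finally 1.24%, 0.827% and 0.957% of 1/7MC+Pyr+FGF. MC was tight in both, and the other 3 groups overlapped with it and with each other.

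**Figure D1:**
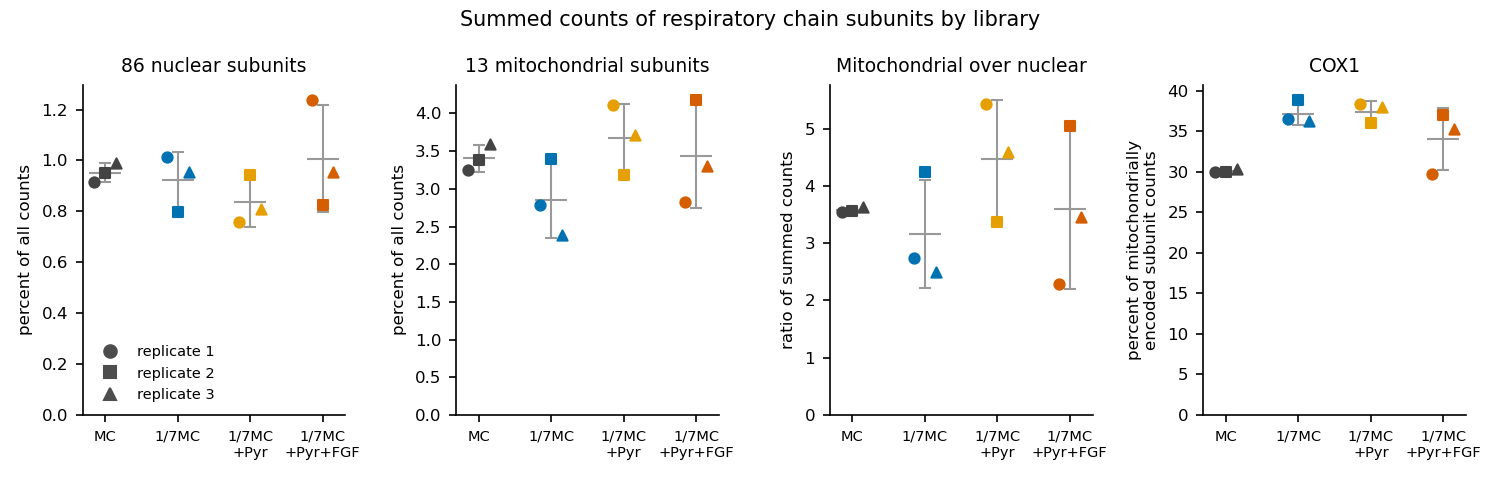
Summed counts of the subunits in each library. The panels show, from the left, the 86 nuclear subunits as a percent of all counts, the 13 mitochondrial genes as a percent of all counts, the ratio of these sums, and COX1 as a percent of the mitochondrial subunit counts; symbols are replicates and gray bars are the mean ± SD of 3 libraries. The ratio spans 3.54 to 3.63 in MC and 2.28 to 5.05 in 1/7MC+Pyr+FGF.

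The ratio of mitochondrial to nuclear counts was 3.58 ± 0.05 (SD, n = 3) in MC, 3.16 ± 0.95 in 1/7MC, 4.46 ± 1.03 in 1/7MC+Pyr and 3.59 ± 1.39 in 1/7MC+Pyr+FGF. Outside MC the SD within a group was of the size of the differences between group means. Within 1/7MC+Pyr and within 1/7MC+Pyr+FGF the library with the lowest nuclear share had the highest mitochondrial share and the reverse, and in 1/7MC replicate 2 was lowest for the nuclear and highest for the mitochondrial genes. The summed fibroblast markers had the same order as the mitochondrial share within 1/7MC (27808, 35422 and 25732 CPM in replicates 1 to 3) and within 1/7MC+Pyr (47132, 31387 and 38177), though not within 1/7MC+Pyr+FGF (21168, 28445 and 29398). Their part in the mitochondrial share was not tested.

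By complex, the imbalance between the genomes was largest at complex IV, where COX1, COX2 and COX3 form the catalytic core: mitochondrial counts were 12.3 ± 0.8 times the nuclear ones in MC, 13.6 ± 4.3 in 1/7MC, 18.8 ± 4.6 in 1/7MC+Pyr and 14.6 ± 6.9 in 1/7MC+Pyr+FGF. MC replicate 1 had 13.2, and MC replicates 2 and 3, with higher nuclear counts of COX6B1 and COX8A, had 11.7 and 11.9. The nuclear sum of complex IV leaves out COX7C, and NDUFA4, now assigned to complex IV, was counted with complex I by its symbol. All these ratios are of counts without correction for gene length. Complex I had 4.75 ± 0.20, 3.17 ± 0.89, 4.84 ± 0.88 and 4.15 ± 1.38 in the same order of groups. All 3 1/7MC libraries (2.82, 4.19 and 2.52) lay below the lowest MC library (4.52) there. Complex III had 2.43 ± 0.11, 2.32 ± 0.71, 2.99 ± 0.72 and 2.54 ± 0.78. Complex V, where only ATP6 and ATP8 are mitochondrial, was the one complex with more nuclear than mitochondrial counts in every library, with ratios from 0.485 to 0.980.

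Per kilobase of gene length, COX1 had the highest level of all subunits (mean 7636 CPM per kb over the 12 libraries), followed by COX3 (5408), ATP6 (4203) and ND1 (2890.5). The highest nuclear levels were those of ATP5F1A and ATP5F1B, the alpha and catalytic beta subunits of the ATP synthase head (512 and 462 CPM per kb), and of ATP5MC3, which encodes the proton-carrying ring subunit (425). Nuclear genes counted here with complex I by their symbol reached 214 (NDUFA4, now assigned to complex IV) and then 170 (NDUFB8). NDUFA4L2 was lowest among those tested with 2.5. ATP8 was low for a mitochondrial gene, with 89.4 CPM per kb. Its reading frame overlaps that of ATP6, as ND4L overlaps ND4, and ND6 lies on the strand opposite to the other subunit genes. The library kit is not stated to mark strand and the counting settings for shared reads are not given, so the values of ATP8, ND4L and ND6 are uncertain.

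COX1, the subunit that holds the oxygen-reducing site, took a share of the mitochondrial subunit counts that set MC apart. It was 30.0%, 30.0% and 30.3% for MC, 36.5%, 38.8% and 36.2% for 1/7MC, 38.3%, 36.0% and 37.9% for 1/7MC+Pyr, and 29.7%, 37.0% and 35.3% for 1/7MC+Pyr+FGF. Of the 9 libraries outside MC, 1/7MC+Pyr+FGF replicate 1 alone did not lie above all of MC. The share is a description, and no test was made of it.

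The comparison of 1/7MC with MC sets the groups whose names carry neither Pyr nor FGF beside each other. Of the mitochondrial genes, most of those of complex I fell and those of complexes III and IV were not called. ND2, a membrane subunit of the proton pump, had 2109, 2434 and 2487 CPM in MC and 1398, 1475 and 1141 in 1/7MC, without overlap. It fell by 0.81 ± 0.11 (log2 ± SE; edgeR adjusted p = 7.61e-05) and by 0.64 against MC replicate 1 alone (adjusted p = 0.0113). ND4L, another small membrane subunit, had 266, 410 and 417 CPM in MC and 163, 197 and 135 in 1/7MC. It fell by 1.14 ± 0.18 (edgeR adjusted p = 0.000324), and the change was -0.67 against MC replicate 1 (adjusted p = 0.0285). These 2 were the mitochondrial genes called in both forms of the comparison.

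COX1 itself had 9673, 10252 and 11076 CPM in MC and 10035, 12944 and 8382 in 1/7MC, which is a change of 0.02 ± 0.21 (edgeR adjusted p = 0.956). The 1/7MC libraries spanned the whole range of MC. COX2, which takes electrons from cytochrome c, changed by -0.16 ± 0.11, COX3 by -0.25 ± 0.21 and CYTB, the core of complex III, by -0.20 ± 0.16, none of them called. Over all mitochondrial genes 0 of 13 rose and 7 fell, where 23.7% of 13920 genes rose and 21.3% fell, and the median log2 fold change was -0.52 against 0.00 for all genes. The 0 was also found at an unadjusted p under 0.05 and with DESeq2. With MC replicate 1 alone, 0 rose and 2 fell (backgrounds 14.0% and 9.96%) with a median of -0.36, and 12 of the 13 fold changes were below 0 in both forms.

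Among the 7 ND genes 5 fell (ND1, ND2, ND4, ND4L and ND6), with a range from -1.14 to -0.16 and a median of -0.56, while 0 of the 3 COX genes were called, with a range from -0.25 to 0.02. The difference between the complexes was not tested. Both ATP synthase genes were called lower, ATP6 with a change of -0.46 ± 0.12 (edgeR adjusted p = 0.00953) and ATP8 with -2.06 ± 0.50 (adjusted p = 0.00499). ATP8 had 12.3 CPM in MC replicate 1 and 60.0 and 42.5 in MC replicates 2 and 3, beside 9.95, 11.03 and 6.58 in 1/7MC, and against MC replicate 1 it changed by -0.41 (adjusted p = 0.560). With MC replicate 1 alone the calls of ND1, ND4, ND6, ATP6 and ATP8 were lost, and that of ND6 also without MC replicate 2 or 3, 1/7MC replicate 1 or 1/7MC replicate 3 (changes from -0.53 to -0.46).

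**Figure D2:**
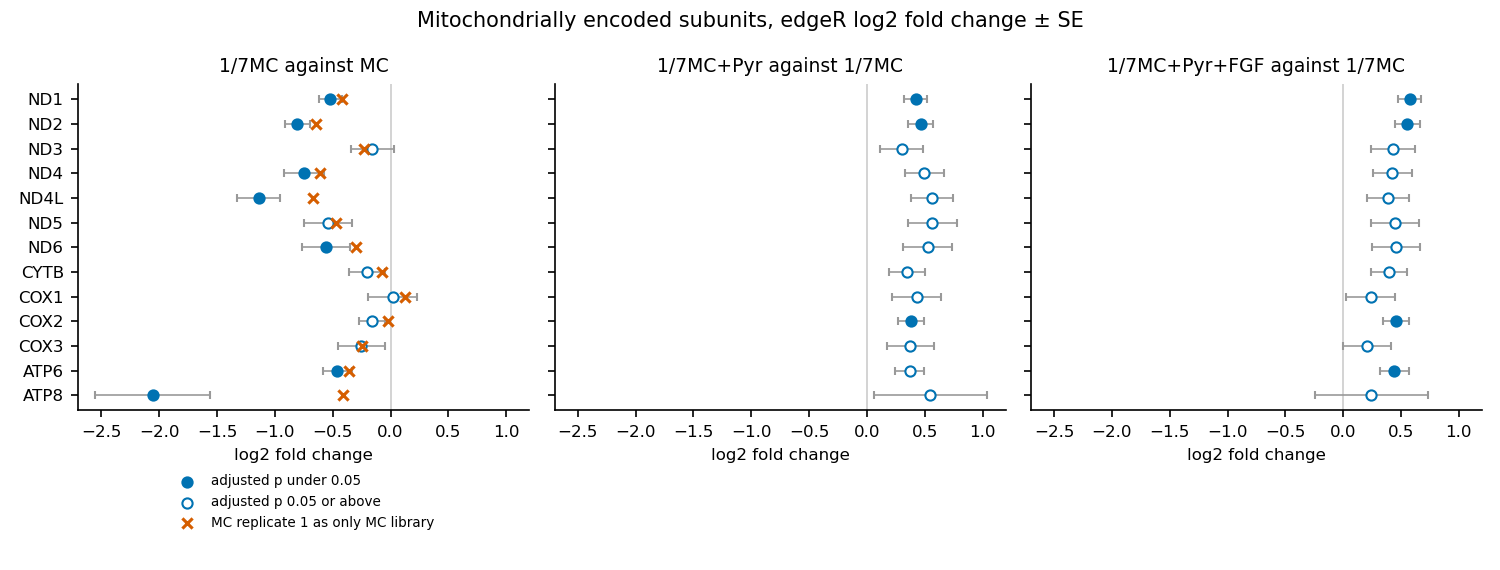
Log2 fold change ± SE of the 13 mitochondrial genes in 3 comparisons (x axis, log2 scale; 3 libraries per group; filled points have an edgeR adjusted p under 0.05). Crosses give the value with MC replicate 1 standing alone for MC; in 1/7MC against MC, ATP8 moves from -2.06 to -0.41, and ND2 from -0.81 to -0.64 stays below 0.

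The comparison of 1/7MC+Pyr with 1/7MC asks what accompanied pyruvate. All 13 mitochondrial genes had fold changes above 0, between 0.30 (ND3) and 0.57 (ND5), with a median of 0.43 where all genes had -0.01. ND1, a subunit at the quinone site of complex I, had 2107, 2336 and 1860 CPM in 1/7MC and 2947, 2654 and 2839 in 1/7MC+Pyr, without overlap, and rose by 0.42 ± 0.10 (edgeR adjusted p = 0.0123). ND2 had 1888, 1793 and 1862 CPM in 1/7MC+Pyr, all above the highest 1/7MC library (1475), and rose by 0.47 ± 0.11 (adjusted p = 0.0106). COX2 rose by 0.38 ± 0.11 (adjusted p = 0.0363), from 1386, 1565 and 1205 CPM to 1976, 1621 and 1803.

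Of the 13 genes 3 rose and 0 fell, beside 8.08% and 10.1% of all genes, and 9 were higher and 0 lower at an unadjusted p under 0.05. DESeq2 gave 7 higher and 0 lower, and its share of all genes is not given here. The number called ran from 1 (without 1/7MC replicate 3) to 7 (without 1/7MC replicate 2) when 1 library was left out. The ND1 call was lost without 1/7MC replicate 3 (0.34), that of COX2 without 1/7MC replicate 1 or 3 or 1/7MC+Pyr replicate 1 or 3 (lowest 0.29), and ND2 passed in each case (lowest 0.36). COX1 had 16185, 11689 and 14394 CPM in 1/7MC+Pyr, a change of 0.43 ± 0.21 that was not called (edgeR adjusted p = 0.187), and the highest 1/7MC library had 12944.

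With FGF added to pyruvate, no mitochondrial gene was called against 1/7MC+Pyr: edgeR called 0 higher and 0 lower of 13, also at an unadjusted p under 0.05 and with DESeq2, where 0.639% and 2.12% of all genes rose and fell. The median was -0.07, and 0.10 without 1/7MC+Pyr replicate 1, 0.08 without 1/7MC+Pyr+FGF replicate 1 and -0.26 without 1/7MC+Pyr+FGF replicate 2. COX1 had 8729, 16142 and 12074 CPM in 1/7MC+Pyr+FGF, the widest spread of a group, and a change of -0.19 ± 0.21. Against 1/7MC, 4 of 13 rose and 0 fell (0 at an unadjusted p and with DESeq2 as well) beside 11.9% and 15.7% of all genes, and the median was 0.43 (0.24 without 1/7MC+Pyr+FGF replicate 2). ND1 rose by 0.57 ± 0.10 (edgeR adjusted p = 0.00134), ND2 by 0.55 ± 0.11 (0.00264), COX2 by 0.46 ± 0.11 (0.0106) and ATP6 by 0.44 ± 0.12 (0.0202).

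ND1 had 3239, 3222 and 2919 CPM in 1/7MC+Pyr+FGF, and ND2 1881, 2117 and 1891, above every 1/7MC library. ATP6, the channel through which protons pass complex V, had 2156, 2627 and 2054 CPM in 1/7MC and 2737, 3454 and 3093 in 1/7MC+Pyr+FGF. Its call was lost without 1/7MC replicate 1 or 3 or 1/7MC+Pyr+FGF replicate 2 (lowest 0.36). The calls of ND1, ND2 and COX2 held with each library left out. After correction for gene length those of COX2 and ATP6 were lost. That of COX2 was also lost without 1/7MC replicate 1, 1/7MC+Pyr replicate 2 and 1/7MC+Pyr+FGF replicate 1 together. This comparison and that of 1/7MC+Pyr share the 1/7MC libraries.

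Against MC, ND2, ND4L and ATP8 fell in 1/7MC+Pyr (0 rose and 3 fell of 13, beside 15.2% and 13.2% of all genes) and ND4L and ATP8 in 1/7MC+Pyr+FGF (0 and 2 of 13, beside 17.1% and 15.4%). Against MC replicate 1 alone, edgeR called 0 of 13 in either direction in both (backgrounds 6.56% and 3.15%, then 5.86% and 6.13%), with 0 at an unadjusted p in the first and 1 higher and 0 lower in the second. DESeq2 with all MC libraries gave 0 higher in both, and 3 and 2 lower. For ND2 in 1/7MC+Pyr the change was -0.34 ± 0.11 with all MC libraries (edgeR adjusted p = 0.0319) and -0.18 with MC replicate 1 (adjusted p = 0.636). The calls of ND2 and ND4L were lost without MC replicate 2 or 3 or 1/7MC+Pyr replicate 1, 2 or 3.

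The ATP8 value reversed to 0.14 with MC replicate 1 standing alone for MC, and its call was lost without MC replicate 2 or 3 or 1/7MC+Pyr replicate 2 or 3. All 3 mitochondrial calls in 1/7MC+Pyr against MC were lost (0 called) without MC replicate 2 or 3, 1/7MC+Pyr replicate 2 or 1/7MC+Pyr replicate 3, and 1 was left without 1/7MC+Pyr replicate 1. Of the 2 calls of 1/7MC+Pyr+FGF against MC, that of ND4L alone was left without MC replicate 2, 1/7MC+Pyr+FGF replicate 1 or 1/7MC+Pyr+FGF replicate 3.

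Few nuclear subunits were called. Of 86, 81 passed the filter on low counts. Against MC, 3 of the 81 rose and 6 fell in 1/7MC (3.70% and 7.41%), in 1/7MC+Pyr against 1/7MC 0 and 1, in 1/7MC+Pyr+FGF against 1/7MC+Pyr 0 and 0, in 1/7MC+Pyr+FGF against 1/7MC 2 and 1, in 1/7MC+Pyr against MC 1 and 5, and in 1/7MC+Pyr+FGF against MC 6 and 4. Each share was below that of all genes for the same direction and comparison, given above, a difference that was not tested. For the zeros, an unadjusted p under 0.05 and DESeq2 gave 0 higher in 1/7MC+Pyr against 1/7MC. The unadjusted p gave 14 higher and 0 lower in 1/7MC+Pyr+FGF against 1/7MC+Pyr, where DESeq2 called 1 gene higher (ATP5F1B) and 0 lower. The nuclear medians of 1/7MC against MC lay between -0.13 (complex II) and 0.04 (complexes I and V).

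**Figure D3:**
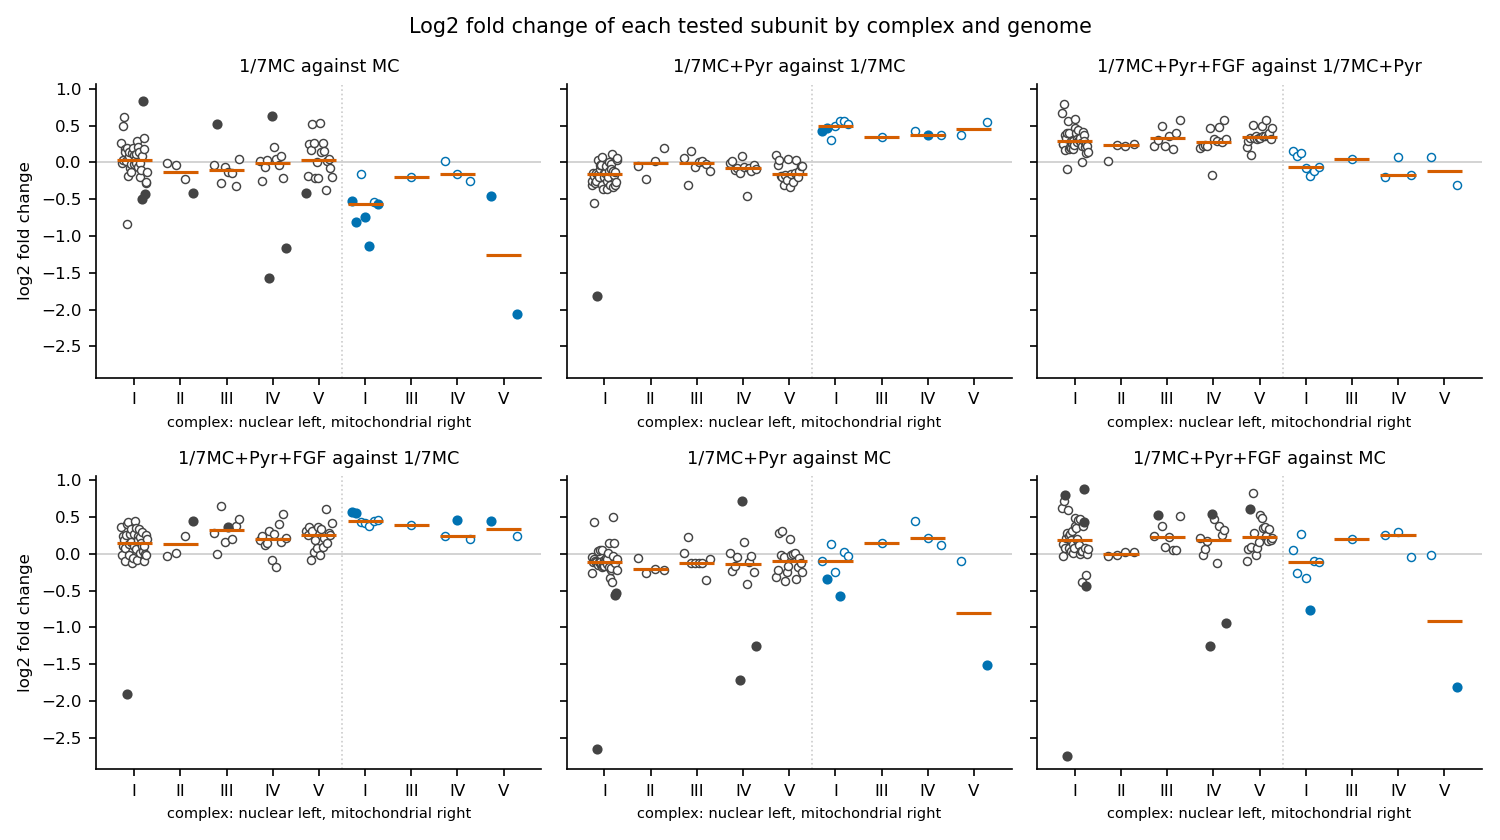
Log2 fold change (y axis) of every tested subunit by complex, nuclear genes on the left and mitochondrial genes on the right of each of 6 panels, 1 per comparison. Filled points have an edgeR adjusted p under 0.05 and orange bars are medians; in 1/7MC+Pyr against 1/7MC the nuclear medians lie between -0.16 and -0.01 and the mitochondrial ones between 0.35 and 0.50.

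With pyruvate the medians of the 2 genomes had opposite signs. The nuclear median was -0.11 with 63 of 81 fold changes below 0 (-0.02 without 1/7MC replicate 1, -0.06 without 1/7MC+Pyr replicate 1, and -0.22 and -0.23 without 1/7MC replicate 2 and 1/7MC+Pyr replicate 2), and by complex it was -0.16 (I), -0.01 (II), -0.01 (III), -0.08 (IV) and -0.15 (V), while the mitochondrial medians were 0.50 (I), 0.35 (III), 0.38 (IV) and 0.46 (V). The difference between genomes was not tested. The all-gene median of short genes, the length class of many nuclear subunits, was -0.14 in the same comparison, and after correction for gene length the nuclear median was 0.01 and the mitochondrial median 0.52.

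With FGF beside pyruvate alone, 78 of 81 nuclear fold changes lay above 0 with a median of 0.30, and the complexes had 0.28 (I), 0.23 (II), 0.33 (III), 0.28 (IV) and 0.34 (V). None was called by edgeR. ATP5F1B had 692, 802 and 730 CPM in 1/7MC+Pyr and 954, 848 and 915 for 1/7MC+Pyr+FGF, a change of 0.29 ± 0.09 (edgeR adjusted p = 0.112, DESeq2 adjusted p = 0.0324). 1/7MC+Pyr+FGF replicate 1 had the highest summed nuclear share of all 12 libraries, and without it the median was 0.11. Against 1/7MC the nuclear median of 1/7MC+Pyr+FGF was 0.20, and -0.02 without the same library, 0.10 without 1/7MC replicate 2 and 0.31 without 1/7MC+Pyr+FGF replicate 2.

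NDUFA4L2 was the nuclear subunit with the largest change. It is a relative of NDUFA4 known to be induced by low oxygen and to lower the activity of complex I, and NDUFA4 itself, named for complex I, is now assigned to complex IV. NDUFA4L2 had 4.7, 6.6 and 4.9 CPM in MC, 4.5, 1.8 and 2.9 for 1/7MC, 1.0, 1.1 and 0.5 in 1/7MC+Pyr and 1.1, 0.4 and 0.9 for 1/7MC+Pyr+FGF, from 13 to 206 counts per library. Both groups with pyruvate lay below every other library.

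Against 1/7MC, NDUFA4L2 fell in both, with changes of -1.81 ± 0.41 in 1/7MC+Pyr (edgeR adjusted p = 0.00900) and -1.91 ± 0.40 in 1/7MC+Pyr+FGF (0.00431). Against MC the changes were -2.65 ± 0.41 (0.000452) and -2.74 ± 0.40 (0.000334), and against MC replicate 1 alone -2.44 (0.00568) and -2.56 (0.00405). These 4 calls held with each library left out, with DESeq2 and after correction for gene length, and the gene was too low for the stricter filter of 1 CPM in 9 libraries. For 1/7MC against MC the change was -0.84 ± 0.36 (edgeR adjusted p = 0.0778), which was called after correction for length (-0.87; 0.0347), without 1/7MC replicate 1, 1/7MC+Pyr replicate 2 and 1/7MC+Pyr+FGF replicate 1 together (-1.24; 0.0278), without MC replicate 1 and without 1/7MC replicate 1, and not against MC replicate 1 (-0.63; 0.383). The change between the pyruvate groups was -0.10 ± 0.44 (0.926). NDUFA4 had 95 to 190 CPM over the 12 libraries and was not called in any of the 6 comparisons, and as a share of the pair, per kilobase, NDUFA4L2 made up 2.55% ± 0.45 (SD, n = 3) in MC, 1.39% ± 0.41 in 1/7MC, 0.447% ± 0.160 in 1/7MC+Pyr and 0.305% ± 0.072 in 1/7MC+Pyr+FGF.

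**Figure D4:**
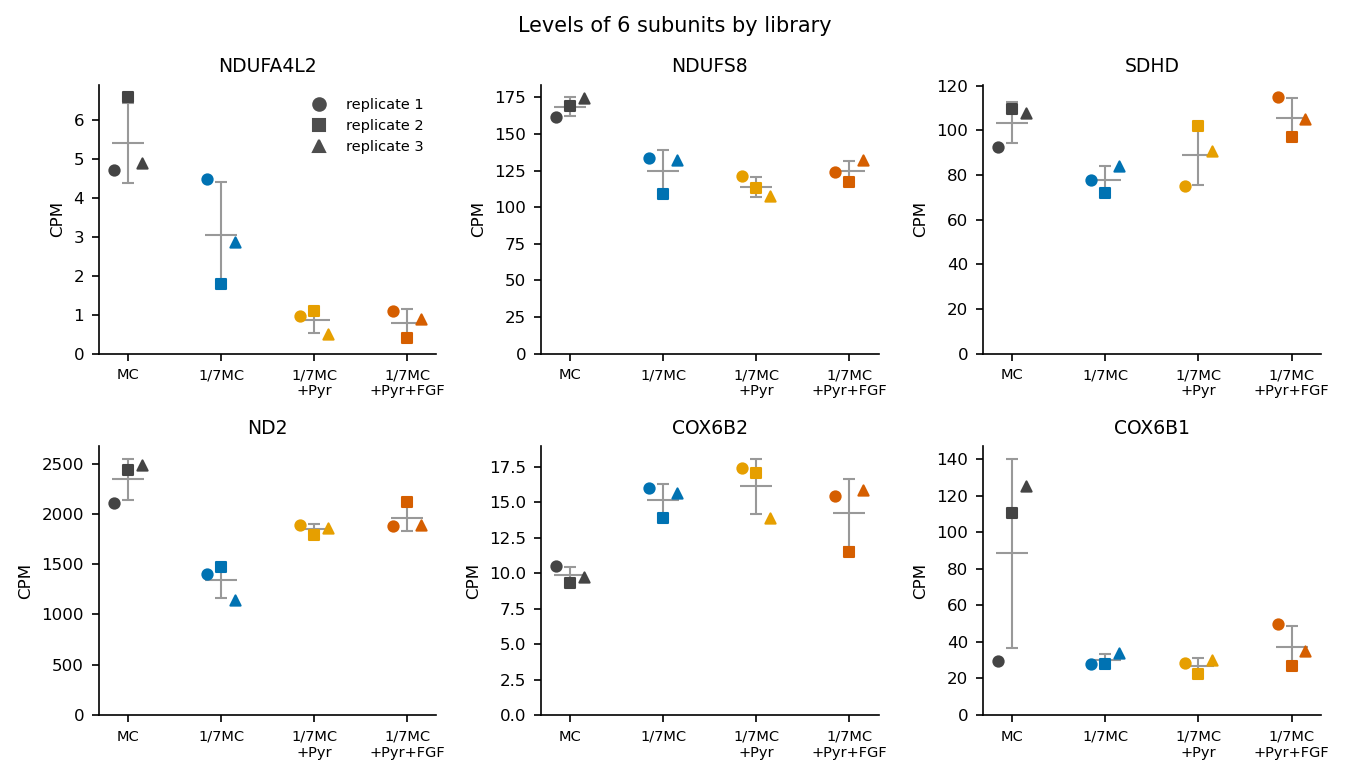
Levels of 6 subunits by library (y axis, CPM from 0; symbols are replicates, gray bars the mean ± SD of 3 libraries). NDUFA4L2 is at 1.1 CPM or below in all 6 libraries with pyruvate, and COX6B1 stands at 110.7 and 125.6 in MC replicates 2 and 3 only.

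Among the electron-carrying subunits of complex I, NDUFS8, which holds iron-sulfur clusters, had 162, 169 and 175 CPM in MC, 133, 109 and 132 for 1/7MC, 121, 113 and 107 in 1/7MC+Pyr and 124, 117 and 132 for 1/7MC+Pyr+FGF. All 9 libraries outside MC lay below all of MC. NDUFS8 fell against MC by 0.43 ± 0.10 in 1/7MC (edgeR adjusted p = 0.00274), 0.57 ± 0.10 in 1/7MC+Pyr (0.000935) and 0.44 ± 0.10 in 1/7MC+Pyr+FGF (0.00438). With MC replicate 1 alone the changes were -0.37 (adjusted p = 0.0863), -0.49 (0.0482) and -0.40 (0.0980), and of these 3 the second was called. These comparisons share the MC libraries.

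NDUFV1, the subunit that binds NADH, had 175, 177 and 183 CPM in MC and 125, 123 and 120 in 1/7MC+Pyr, and fell by 0.54 ± 0.12 there (edgeR adjusted p = 0.00513; against MC replicate 1, -0.49 with adjusted p = 0.0933). The 1/7MC libraries (165, 126 and 151) lay between. NDUFS6, an accessory subunit, rose in 1/7MC+Pyr+FGF against MC by 0.44 ± 0.14 (0.0272). NDUFS3, a core subunit, fell in 1/7MC by 0.49 ± 0.15 (0.0195), while NDUFS5 rose by 0.84 ± 0.31 (0.0440) there and by 0.88 ± 0.31 in 1/7MC+Pyr+FGF (0.0476), where NDUFA13 rose by 0.80 ± 0.25 (0.0270). NDUFS3, NDUFS5 and NDUFA13 are among the genes for which MC replicates 2 and 3 stand apart: NDUFS5 had 43.2, 22.1 and 21.1 CPM in MC, and none of these calls was made against MC replicate 1. Without MC replicate 2 or MC replicate 3 the calls of NDUFS3, NDUFS5, NDUFA13 and NDUFS6 were lost, as were those of NDUFA13, NDUFS5 and NDUFS6 in 1/7MC+Pyr+FGF without its replicate 1 or 3, of NDUFS3 without 1/7MC replicate 2, and of NDUFS5 in 1/7MC without any 1 of its 3 libraries.

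In complex II, SDHA, the flavoprotein that oxidises succinate, had 221 to 261 CPM over all 12 libraries, and its 6 log2 fold changes lay between -0.06 and 0.02. SDHB, the iron-sulfur subunit, had 76 to 103 CPM and SDHC, a membrane anchor, 63 to 98, and neither was called. SDHD, the other anchor, had 92.7, 109.8 and 107.9 CPM in MC, 77.7, 71.8 and 84.0 for 1/7MC, 74.9, 102.0 and 90.6 in 1/7MC+Pyr and 114.8, 97.1 and 105.3 for 1/7MC+Pyr+FGF. The 1/7MC libraries lay below all of MC and all of 1/7MC+Pyr+FGF.

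SDHD fell by 0.41 ± 0.12 in 1/7MC against MC (edgeR adjusted p = 0.0146; against MC replicate 1, -0.24 with 0.325) and rose by 0.44 ± 0.12 in 1/7MC+Pyr+FGF against 1/7MC (0.0171). The fall was lost without MC replicate 2 or 3 or 1/7MC replicate 2 (changes from -0.38 to -0.37), and the rise without 1/7MC replicate 1 or 2 or 1/7MC+Pyr+FGF replicate 1 (from 0.38 to 0.44). The change of SDHD between 1/7MC+Pyr and 1/7MC was 0.20 ± 0.12 (edgeR adjusted p = 0.30).

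In complex III, UQCRC2, a core subunit, had 86.8, 87.9 and 100.1 CPM in 1/7MC and 137.4, 102.6 and 113.2 in 1/7MC+Pyr+FGF, and rose by 0.36 ± 0.12 (edgeR adjusted p = 0.0387), a call lost without 1/7MC replicate 1 or 2 or 1/7MC+Pyr+FGF replicate 1 or 3. The small subunit UQCR11 had 25.9, 20.1 and 23.2 CPM in MC and 38.1, 28.9 and 32.9 in 1/7MC. It rose there by 0.53 ± 0.16 (0.0199; against MC replicate 1, 0.37 with 0.262) and in 1/7MC+Pyr+FGF against MC by 0.53 ± 0.16 (0.0277). The first call was lost without MC replicate 2 or 1/7MC replicate 1 or 3, and the second without MC replicate 2 or 3 or 1/7MC+Pyr+FGF replicate 1 or 3. UQCRFS1, the iron-sulfur protein, and UQCRC1 were not called in any comparison.

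Complex IV holds pairs of a general and a tissue-limited form. COX6B2, a form best known from testis, had 10.5, 9.29 and 9.76 CPM in MC, 16.0, 13.9 and 15.7 for 1/7MC, 17.4, 17.0 and 13.9 in 1/7MC+Pyr and 15.4, 11.5 and 15.9 for 1/7MC+Pyr+FGF. Every library outside MC lay above all of MC. COX6B2 rose against MC by 0.62 ± 0.14 in 1/7MC (edgeR adjusted p = 0.00337), 0.71 ± 0.14 in 1/7MC+Pyr (0.00281) and 0.54 ± 0.14 in 1/7MC+Pyr+FGF (0.0129). Against MC replicate 1 the changes were 0.55 (0.0774), 0.64 (0.0788) and 0.43 (0.214), none called, and the last call was also lost without MC replicate 2 or 1/7MC+Pyr+FGF replicate 3.

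Its general partner COX6B1 had 29.5 CPM in MC replicate 1 and 110.7 and 125.6 in MC replicates 2 and 3, beside 22.4 to 49.6 in the other 9 libraries. The test called it lower in all 3 comparisons with MC (-1.57 ± 0.40, -1.71 ± 0.40 and -1.25 ± 0.40; adjusted p = 0.00707, 0.00772 and 0.0300), while against MC replicate 1 the changes were 0.030, -0.11 and 0.32. The call in 1/7MC+Pyr+FGF was also lost without MC replicate 2 or 3 or 1/7MC+Pyr+FGF replicate 2 or 3. COX8A, a small subunit, had 99, 211 and 222 CPM in MC and 66 to 112 elsewhere. It was also called lower in all 3 (-1.16 ± 0.26, -1.25 ± 0.26 and -0.94 ± 0.25; edgeR adjusted p = 0.00278, 0.00333 and 0.0143). None of its calls was made with MC replicate 1 alone, where the change in 1/7MC was -0.31. With correction for gene length added, its calls in 1/7MC and 1/7MC+Pyr were made with MC replicate 1. The call in 1/7MC+Pyr+FGF was lost without MC replicate 2 or 3 or 1/7MC+Pyr+FGF replicate 2. Both genes stood high in the 2 MC libraries that stand apart.

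COX7A1, the form of heart and muscle, was 9.90% ± 1.17 (SD, n = 3) of its pair with COX7A2 in MC, 10.2% ± 2.1 in 1/7MC, 8.04% ± 1.37 in 1/7MC+Pyr and 6.79% ± 1.24 in 1/7MC+Pyr+FGF, per kilobase, and no member of the COX7A family was called in any of the 6 comparisons with all libraries and no correction for length. COX4I2, COX7B2 and COX8B stayed below 1% of their pairs, with 0 to 8 counts per library, and COX6A2 and COX8C were at 0 in all 12 libraries, which allows up to 3 counts in a library as counting error. These 5 were the nuclear members too low to test.

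In complex V, ATP5F1C, the rotating gamma subunit, had 237, 233 and 236 CPM in MC, 306, 245 and 289 for 1/7MC, 245, 326 and 287 in 1/7MC+Pyr and 442, 291 and 346 for 1/7MC+Pyr+FGF, above MC in every other library. It rose in 1/7MC+Pyr+FGF against MC by 0.61 ± 0.15 (edgeR adjusted p = 0.00784), which held with each library left out (0.44 to 0.75), though not against MC replicate 1 (0.59; 0.104). ATP5F1A had 1045, 1147 and 1182 CPM in MC and 910, 731 and 889 in 1/7MC, and fell by 0.42 ± 0.12 (0.0154; against MC replicate 1, -0.30 with 0.253), a call lost without MC replicate 3 or 1/7MC replicate 2. ATP5IF1, the inhibitor of the synthase that the rule also takes in, had 110.5 to 197.1 CPM and was not called in any of the 6 comparisons before correction for length. After it, ATP5IF1 rose by 0.22 in 1/7MC against MC (edgeR adjusted p = 0.0488).

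With MC replicate 1 standing alone for MC, the nuclear calls were 0 and 0 in 1/7MC (1 higher and 1 lower at an unadjusted p under 0.05; DESeq2 with all MC libraries 4 and 6), 0 rises and 2 falls in 1/7MC+Pyr (NDUFA4L2 and NDUFS8) and 0 and 1 in 1/7MC+Pyr+FGF (NDUFA4L2). The nuclear medians were then 0.06, -0.03 and 0.22, beside 0.00, -0.12 and 0.19 with all MC libraries. The -0.12 of 1/7MC+Pyr became -0.03 without its replicate 1, -0.07 without MC replicate 3 and -0.25 without its replicate 2, and the 0.19 of 1/7MC+Pyr+FGF became -0.03 without its replicate 1 and 0.32 without its replicate 2. Of the nuclear calls with all MC libraries, 4 of 9, 2 of 6 and 4 of 10 were genes for which MC replicates 2 and 3 stand apart. Left-out libraries moved these counts: 5 without MC replicate 2 or MC replicate 3 in 1/7MC, and in 1/7MC+Pyr+FGF 3 without MC replicate 2, 4 without MC replicate 3 or 1/7MC+Pyr+FGF replicate 3, and 20 without 1/7MC+Pyr+FGF replicate 2. Away from MC, the nuclear calls of 1/7MC+Pyr against 1/7MC were 3 without 1/7MC replicate 2, and those of 1/7MC+Pyr+FGF against 1/7MC were 1 without 1/7MC replicate 1 or 2 or 1/7MC+Pyr+FGF replicate 1, and 9 without 1/7MC+Pyr+FGF replicate 2.

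Libraries differed in their level of short genes, and many nuclear subunits are short. The 81 tested ones span 190 to 4044 bases with a median of 695, and 3 classes of 27 by length were compared with all genes of the same range. For 1/7MC+Pyr+FGF replicate 1 the median deviation from the mean of the 12 libraries was 0.67 (log2) for short, 0.55 for middle and 0.34 for long nuclear subunits, beside 0.38, 0.27 and 0.05 for all genes. For 1/7MC replicate 2 it was -0.24, -0.24 and -0.22, beside -0.17, -0.15 and -0.04, and in 1/7MC+Pyr replicate 1 -0.31, -0.33 and -0.24, beside -0.26, -0.18 and -0.03. The subunits moved with short genes at large in these libraries, and the long subunits moved further than long genes at large. In MC all medians of nuclear subunits lay between -0.11 and 0.11.

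**Figure D5:**
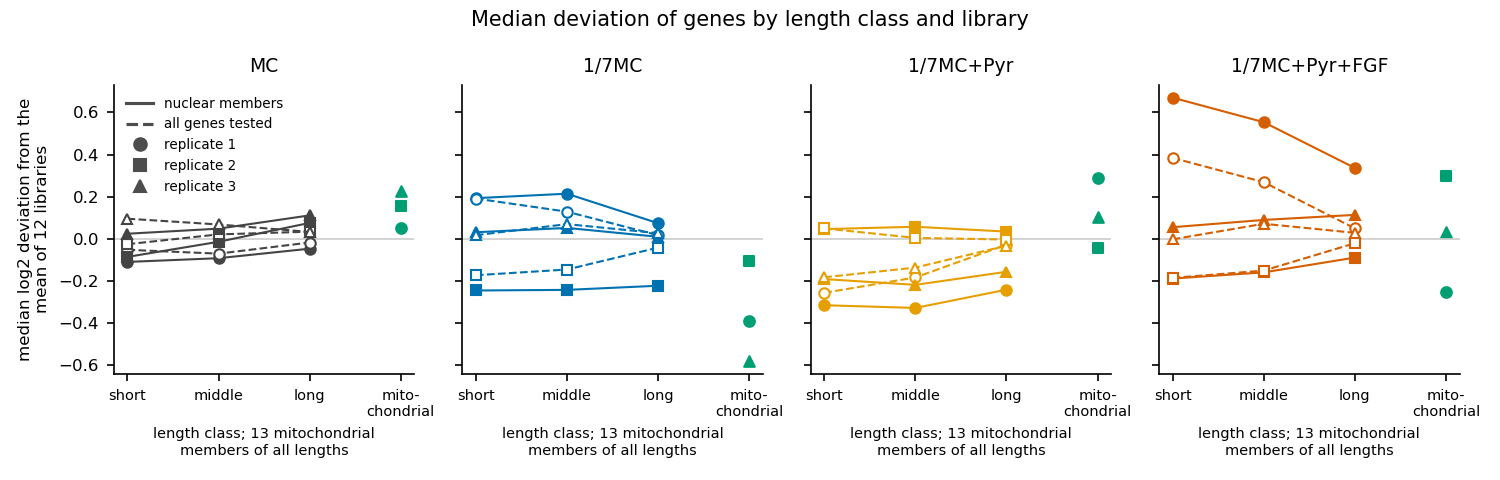
Median log2 deviation of a library from the mean of the 12 libraries (y axis) for short, middle and long genes (x axis), for nuclear subunits (solid lines) and all tested genes (dashed lines), with the median of the 13 mitochondrial genes at the right of each panel. For 1/7MC+Pyr+FGF replicate 1 the solid line falls from 0.67 to 0.34 and the dashed line from 0.38 to 0.05.

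The mitochondrial genes went the other way from the nuclear ones in several libraries, though not in 1/7MC replicate 2. Their median deviation was -0.25 in 1/7MC+Pyr+FGF replicate 1, where the nuclear median was 0.48, and 0.29 in 1/7MC+Pyr replicate 1, where the nuclear median was -0.29. The values of 1/7MC+Pyr+FGF replicate 2 were 0.30 and -0.15. All 3 mitochondrial medians of 1/7MC were below 0 (-0.39, -0.11 and -0.58) beside nuclear medians of 0.17, -0.23 and 0.02.

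Across the 81 nuclear subunits, Spearman's rho of the log2 fold change with length was -0.37 in 1/7MC against MC, 0.36 in 1/7MC+Pyr against 1/7MC, -0.34 in 1/7MC+Pyr+FGF against 1/7MC+Pyr, 0.03 in 1/7MC+Pyr+FGF against 1/7MC, -0.25 in 1/7MC+Pyr against MC and -0.34 in 1/7MC+Pyr+FGF against MC. Over all 13920 genes it was 0.08, 0.13, -0.31, -0.10, 0.20 and 0.03. These values are across genes, which are not independent replicates and share their libraries. For 1/7MC+Pyr+FGF against 1/7MC+Pyr, where rho was closest between the subunits and all genes, short, middle and long subunits had medians of 0.33, 0.33 and 0.25, and all genes 0.23, 0.16 and 0.05.

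A second fit removed each library's length trend over all genes, for which rho then lay between -0.01 and 0.03. Across the 81 nuclear subunits rho was then -0.31, 0.08, 0.23, 0.18, -0.35 and -0.18, in the order of comparisons used above. Among the subunits rho turned from -0.34 to 0.23 in 1/7MC+Pyr+FGF against 1/7MC+Pyr. In 1/7MC+Pyr against MC it went from -0.25 to -0.35. A trend among the subunits themselves was thus present after the correction in several comparisons, and its sign or size was not always that before it. Between 1/7MC+Pyr+FGF and 1/7MC+Pyr the nuclear median went from 0.30 to 0.13 with 70 of 81 above 0, and edgeR called 0 and 0 nuclear and 0 and 0 mitochondrial genes (backgrounds 1.01% and 2.67%). Against 1/7MC the nuclear median of 1/7MC+Pyr+FGF went from 0.20 to 0.14 while the median SE of the nuclear subunits went from 0.16 to 0.10, and 11 of them rose and 1 fell (14.6% and 17.2%). The 11 of 81 were a smaller share than the 14.6% of all genes. They were ATP5F1A, ATP5F1B, ATP5F1C, ATP5MC3, ATP5PO, COX7A2, NDUFA6, NDUFA9, SDHD, UQCRB and UQCRC2. Of these, 5 are parts of the ATP synthase, to which 18 of the 86 nuclear subunits belong, and their number was not tested. In this fit ATP5F1B rose by 0.22 (adjusted p = 0.0282), ATP5PO by 0.34 (0.0214) and SDHD was called as before.

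Against MC the corrected fit gave 7 rises and 9 falls among nuclear subunits in 1/7MC (24.9% and 24.6% of all genes), 3 and 5 in 1/7MC+Pyr (16.8% and 16.3%) and 14 and 6 in 1/7MC+Pyr+FGF (19.7% and 18.2%). Between 1/7MC+Pyr and 1/7MC it left NDUFA4L2 as the only nuclear call (0 and 1; 9.89% and 11.3%). Mitochondrial calls were 0 and 5, 2 and 0, 2 and 0, 0 and 0, and 0 and 2 in 1/7MC against MC, 1/7MC+Pyr against 1/7MC, 1/7MC+Pyr+FGF against 1/7MC, 1/7MC+Pyr against MC and 1/7MC+Pyr+FGF against MC. Their medians of -0.52, 0.52, 0.41, 0.08 and -0.06 stood beside -0.52, 0.43, 0.43, -0.04 and -0.04 without the correction, the last of which was -0.29 without 1/7MC+Pyr+FGF replicate 2. ND1 and ND2 kept their calls in 1/7MC against MC and in both groups with pyruvate against 1/7MC.

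The counts of other pathway genes stand beside shares of all genes of 23.7% and 21.3% (rose and fell) in 1/7MC against MC, 8.08% and 10.1% in 1/7MC+Pyr against 1/7MC, 11.9% and 15.7% in 1/7MC+Pyr+FGF against 1/7MC, 15.2% and 13.2% in 1/7MC+Pyr against MC and 17.1% and 15.4% in 1/7MC+Pyr+FGF against MC. Of 19 complex I assembly factors, 1 rose and 3 fell in 1/7MC against MC, 0 and 4 in 1/7MC+Pyr against MC and 3 and 3 in 1/7MC+Pyr+FGF against MC, and edgeR called 0 and 0 in each of these 3 with MC replicate 1. With pyruvate 0 and 0 were called against 1/7MC, and 1 rose and 0 fell in 1/7MC+Pyr+FGF against 1/7MC. FOXRED1 fell by 0.63 ± 0.13 in 1/7MC+Pyr+FGF against MC (edgeR adjusted p = 0.00327; against MC replicate 1, -0.53 with 0.0820) and DMAC1 by 0.86 ± 0.22 in 1/7MC+Pyr against MC (0.0111; -0.34 with 0.479). Of 12 factors of complexes II and III, 1 rose and 0 fell in 1/7MC against MC (0 and 1 with MC replicate 1), and 2 rose and 0 fell in 1/7MC+Pyr+FGF against 1/7MC. UQCC1, needed to make CYTB, rose by 0.87 ± 0.11 in 1/7MC+Pyr+FGF against MC, from a mean of 37.1 CPM to 67.9 (0.000121), and by 0.70 against MC replicate 1 (adjusted p = 0.0126), and TTC19 rose by 0.48 ± 0.16 in 1/7MC+Pyr+FGF against 1/7MC (0.0375).

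Of 23 factors of complexes IV and V, 3 rose and 2 fell in 1/7MC against MC (0 and 0 with MC replicate 1), and 2 rose and 0 fell in 1/7MC+Pyr+FGF against 1/7MC. TACO1, which promotes translation of COX1, fell by 1.17 ± 0.26 in 1/7MC against MC (edgeR adjusted p = 0.00277), though the change was -0.47 and not called against MC replicate 1 (0.242), and COA5 rose by 0.72 ± 0.21 there (0.0139; 0.51 with 0.217). Cytochrome c itself, CYCS, had means of 57.3, 52.2, 50.8 and 81.5 CPM in the order of the groups above, and rose by 0.65 ± 0.21 in 1/7MC+Pyr+FGF against 1/7MC (0.0354). CYC1, the cytochrome c1 of complex III, whose symbol falls outside the prefixes of the rule, had 180.0, 187.3, 167.3 and 191.0 CPM and was not called.

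For the expression of the mitochondrial genome, 26 genes of mitochondrial transcription and RNA handling were tested. Against MC, 1 rose and 8 fell in 1/7MC with a median of -0.20 (23.7% and 21.3% of all genes rose and fell), in 1/7MC+Pyr against 1/7MC 2 rose and 0 fell (8.08% and 10.1% of all genes), in 1/7MC+Pyr+FGF against 1/7MC+Pyr 0 and 0 were called, and in 1/7MC+Pyr+FGF against 1/7MC 7 rose and 0 fell (11.9% and 15.7%), with a median of 0.23. With MC replicate 1 standing alone for MC, 0 rose and 1 fell in 1/7MC, with a median of -0.05. TFAM, which packs and transcribes mitochondrial DNA, had means of 54.8, 45.6, 47.6 and 54.8 CPM and was not called. FASTK rose by 1.32 ± 0.36 (edgeR adjusted p = 0.00936) and TFB1M fell by 0.76 ± 0.21 (0.0111) in 1/7MC against MC, with 0.44 (0.0852) and -0.07 (0.824) against MC replicate 1.

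Of 13 genes of mitochondrial DNA replication and repair, 1 rose and 3 fell in 1/7MC against MC (1 and 1 with MC replicate 1) and 2 rose and 1 fell in 1/7MC+Pyr+FGF against 1/7MC. TK2, the mitochondrial thymidine kinase, had means of 7.82, 17.2, 13.6 and 12.7 CPM and rose by 1.14 ± 0.15 in 1/7MC against MC (edgeR adjusted p = 7.06e-05), and by 0.89 against MC replicate 1 (0.00325). The ligase gene LIG3 fell there by 0.47 ± 0.07 (0.000231), and its change was -0.50 against MC replicate 1 (0.00813). Of 77 genes of the mitochondrial ribosome, 6 rose and 3 fell in 1/7MC against MC (2 and 1 with MC replicate 1), 0 and 1 in 1/7MC+Pyr against 1/7MC, 0 and 0 in 1/7MC+Pyr+FGF against 1/7MC+Pyr and, last, 8 and 0 in 1/7MC+Pyr+FGF against 1/7MC, with medians of 0.01, -0.06, 0.26 and 0.21. MRPL27 and MRPS35 rose in 1/7MC+Pyr+FGF against MC by 0.74 ± 0.16 (0.00376) and 0.74 ± 0.17 (0.00649), and were not called against MC replicate 1 (0.0573 and 0.109).

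Of 16 regulators of mitochondrial content, 3 rose and 7 fell in 1/7MC against MC (0 and 4 with MC replicate 1), 2 and 1 in 1/7MC+Pyr against 1/7MC, and 2 and 2 in 1/7MC+Pyr+FGF against 1/7MC. The 2 related coactivators went opposite ways in 1/7MC+Pyr+FGF against 1/7MC. PPARGC1A, at 0.598, 0.981, 0.385 and 0.275 CPM, fell against 1/7MC, with changes of -1.36 ± 0.41 in 1/7MC+Pyr (edgeR adjusted p = 0.0376) and -1.79 ± 0.41 in 1/7MC+Pyr+FGF (0.00725). These levels of PPARGC1A are all below 1 CPM, so few counts limit its test. PPARGC1B, at 16.5, 13.9, 26.4 and 29.0 CPM, rose by 1.06 ± 0.35 in 1/7MC+Pyr+FGF against 1/7MC (0.0402). ESRRA fell by 0.33 ± 0.10 (0.0163) and GABPA rose by 0.66 ± 0.21 (0.0202) in 1/7MC against MC, though with MC replicate 1 they had adjusted p = 0.119 and 0.514. ESRRB fell by 1.32 ± 0.27 in 1/7MC+Pyr+FGF against MC (0.00297; 0.205 with MC replicate 1), and NRF1 was not called.

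Markers of other cells moved with these groups. Of the 25 fibroblast and feeder markers, 25 rose and 0 fell in 1/7MC against MC (24 and 0 with MC replicate 1), 7 and 7 changed with pyruvate, and 0 rose and 7 fell when FGF was added to it. Of the 8 pluripotency markers, 0 rose and 5 fell in 1/7MC against MC, 6 rose and 0 fell in 1/7MC+Pyr against 1/7MC, and 6 rose and 0 fell in 1/7MC+Pyr+FGF against 1/7MC. With FGF added to pyruvate 0 rose and 1 fell. Against MC, 2 rose and 1 fell in 1/7MC+Pyr, and 2 rose and 2 fell in 1/7MC+Pyr+FGF. Trophectoderm markers summed to 1376 to 1680 CPM in MC, 619 to 812 in 1/7MC, 1110 to 1241 in 1/7MC+Pyr and 1732 to 2137 in 1/7MC+Pyr+FGF, and IFNT2 of that list was at 0. Their members went both ways. Of the 5 tested, 1 rose and 3 fell in 1/7MC against MC, and 2 rose and 1 fell in 1/7MC+Pyr against 1/7MC. In 1/7MC+Pyr+FGF against 1/7MC 2 rose and 2 fell, and both of these comparisons with 1/7MC had a median of -0.08. Of the 6 neural markers tested, 4 rose and 1 fell in 1/7MC against MC with a median of 1.19 (4 and 0 with MC replicate 1), 0 rose and 5 fell in 1/7MC+Pyr against 1/7MC with a median of -2.12, and 0 rose and 5 fell in 1/7MC+Pyr+FGF against 1/7MC with a median of -2.51. PAX6, named here after its values were seen, had means of 21.1, 68.7, 9.34 and 7.14 CPM in the 4 groups. The summed neural level (687 to 853, 994 to 1185, 794 to 997 and 717 to 1058 CPM) was mostly that of NES, with means of 636 to 775, which was not called in 1/7MC against MC or in 1/7MC+Pyr against 1/7MC. Endoderm markers summed to 9 CPM at most and blood and endothelial markers to 38 at most. The part of these markers in the subunit values was not tested.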

How the data were processed

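Poly-A RNA was selected with poly-T beads and random hexamers primed the NEBNext Ultra libraries, per the labels' protocols. HISAT2 2.1.0, featureCounts of Subread 2.0, fastp 0.19.7 and the build bosTau9 are named in the submitters' processing notes; order, settings and annotation are not given in the sources used here. The deposited table holds whole-number counts per gene, which the authors did not normalise. A deposited table named TPM was not used.

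Symbols came from a RefSeq table of another assembly, ARS-UCD2.0, by Entrez identifier (19195 of 19285 entries matched), so no coordinates are given. Entries sharing an identifier (400) were left out, which kept 18885. Members, gene lists and tests were chosen with earlier results of these data known. The text names all mitochondrial genes, the isoform pairs, the SDH genes, ATP5IF1, the 2 called nuclear members with the largest change per complex and comparison, the 2 called genes with the largest change per pathway list, and the 9 named carriers and regulators; other genes were picked after their values were seen.

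Counts were tested with edgeR 4.0.16 (R 4.3.3): filterByExpr (13920 genes), trimmed-mean scaling, 1 coefficient per group over all 12 libraries, quasi-likelihood F test and Benjamini-Hochberg adjustment over all genes. Adjusted p under 0.05 counts as called. SE is the log2 fold change over the square root of F. The fit with MC replicate 1 standing alone for MC tested 14361 genes. The length correction used a lowess of each library's log2 deviation on log2 length as an offset. CPM were computed from the deposited counts. Other settings were DESeq2 1.42.0, its size factors, no filter, a filter of 1 CPM in 9 libraries, a replicate block, the 2 groups alone, mitochondrial genes left out of library sizes, each library left out, and, chosen after seeing the data, 3 libraries left out together. The test was run on simulated counts first. Python 3.11.15 and matplotlib 3.10.9 drew the plots. Same-numbered replicates did not deviate together, so numbers were not used as pairs.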

Additional observations from a re-analysis of the deposited data

How the results depend on the processing

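Counts of called members depended on the MC libraries used and on their number. Fits with 1 MC library have less power, and calls were also lost where the change moved little, as for ATP5F1C in 1/7MC+Pyr+FGF against MC. The part of lost power was not tested. Shares of all genes are given above only for the main fit, MC replicate 1 alone and length correction. For other settings, more calls among members cannot be told from more calls at large. Nuclear calls in 1/7MC against MC (9) became 14 with only those groups in the fit, 0 with MC replicate 1 standing alone for MC, 16 after length correction and 3 with both, 15 without the 3 libraries richest in short genes of their groups (1/7MC replicate 1, 1/7MC+Pyr replicate 2 and 1/7MC+Pyr+FGF replicate 1) and 1 with both exclusions, and ran from 5 to 12 with 1 library left out. Mitochondrial calls there (7) became 2, 1 and 2 with MC replicate 1 alone, with length correction added and with the 3 libraries left out too. In 1/7MC+Pyr against MC, nuclear calls (6) became 2 with MC replicate 1, 13 without the 3 libraries and 1 with both exclusions, and mitochondrial calls (3) became 0 with MC replicate 1, with length correction, without the 3 libraries and with MC replicate 1 plus either, and 0 to 3 with 1 library left out. In 1/7MC+Pyr+FGF against MC, nuclear calls (10) became 4 with the 2 groups alone, 1 with MC replicate 1, 20 with length correction, 3 with both and 1 with MC replicate 1 and the 3 libraries left out, and 3 to 20 with 1 left out, and mitochondrial calls (2) became 0 with MC replicate 1, with length correction added to it, without the 3 libraries and with both exclusions, and 1 to 3 with 1 left out.

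Away from MC, nuclear calls in 1/7MC+Pyr against 1/7MC (1) became 0 with the stricter filter, 2 with the 2 groups alone and 2 with DESeq2, and 1 to 3 with 1 left out, and mitochondrial calls (3) became 7 with the 2 groups alone and 7 with DESeq2, and 1 to 7. In 1/7MC+Pyr+FGF against 1/7MC+Pyr the 0 nuclear calls became 1 with DESeq2. In 1/7MC+Pyr+FGF against 1/7MC, nuclear calls (3) became 12 with length correction, 1 without the 3 libraries and 6 with DESeq2, and 1 to 9, and mitochondrial calls (4) became 2 with length correction. The stricter filter left NDUFA4L2 out of the test; elsewhere the cause was not tested.

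The sign of COX6B1 against MC turned with MC replicate 1 in 1/7MC (0.030, and 0.079 without the 3 libraries), in 1/7MC+Pyr (0.014 without the 3 libraries) and in 1/7MC+Pyr+FGF (0.32, 0.28 with length correction, 0.052 without the 3 libraries). ATP8 in 1/7MC+Pyr against MC turned to 0.14, 0.20 with length correction and 0.42 without the 3 libraries, and NDUFS5 in 1/7MC+Pyr+FGF against MC to -0.10 with MC replicate 1 and without the 3 libraries. Of the other values of single genes, 3312 kept their status as called or not called, 180 lost a call and 56 gained one. The sign of genes not called did not always hold: the mitochondrial median of 1/7MC+Pyr+FGF against 1/7MC+Pyr went from -0.07 to 0.10 without 1/7MC+Pyr replicate 1. Of the medians, 195 moved by less than the spread between libraries and 3 by more. Same-numbered replicates had a median correlation of -0.04 (18 pairs) and other pairs 0.02, and with the number as a replicate block the nuclear calls were 11, 1, 0, 2, 7 and 9 and the mitochondrial calls 7, 3, 0, 4, 2 and 2 in the order 1/7MC against MC, 1/7MC+Pyr against 1/7MC, 1/7MC+Pyr+FGF against 1/7MC+Pyr, 1/7MC+Pyr+FGF against 1/7MC, 1/7MC+Pyr against MC and 1/7MC+Pyr+FGF against MC. Genes with few counts limit the test: NDUFA4L2 had 13 to 206 counts per library and the 5 untested subunits 0 to 8.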
